A study of Mus musculus with 24 samples.

Results

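Hepatocytes, the main cells of the liver, make most of the proteins of blood plasma, and 32 transcripts that are known for this source were followed through 24 libraries of mouse muscle. They are 32 of the 55385 genes counted in each library. The members were chosen by their measured levels in these same libraries: transcripts of plasma proteins and liver enzymes that had been seen high in a few libraries and low in the rest. Their levels and group differences are therefore given as a description, and no test over them as a list was made. Each member's symbol was matched to 1 Ensembl gene. In GRCm38, Alb (ENSMUSG00000029368.10) lies at chr5:90460897-90476602, Ahsg (ENSMUSG00000022868.6) at chr16:22891277-22899449 and Cyp2e1 (ENSMUSG00000025479.9) at chr7:140763739-140774987, and the 5 Serpina1 copies lie between 103728156 and 103958975 of chromosome 12.

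The study sequenced RNA from the gastrocnemius, a muscle of the calf, of female C57BL/6J mice, in 6 groups of 4 mice, each mouse giving 1 library. Young mice were 3 to 6 months old, old mice 21 to 24 months and oldest-old mice 27 to 29 months. At each age 1 group (young GFP, old GFP, oldest-old GFP) received an adeno-associated virus of serotype AAV8 that encodes enhanced green fluorescent protein, while the old and oldest-old mice labelled AAV-Kl received the same vector with a codon-optimized Klotho sequence. Klotho is a protein linked to lifespan in mice. A second young group is labelled Sham, and what it received is not given in the sources used here. Vectors were given by the tail vein at 3e8 vector genomes per mouse, and muscle was collected 14 days later. Both vectors carry LP-1, a promoter that works in liver, and every GFP group thus also carries a vector that targets hepatocytes. In whole-muscle RNA, fewer cells of a type and less RNA per cell cannot be told apart.

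Albumin (Alb) keeps water in the circulation and carries fatty acids and drugs. Apolipoproteins (Apoa1, Apoa2, Apob) coat lipoprotein particles, and Apoh is named with them. The fibrinogen chains (Fga, Fgb, Fgg), prothrombin (F2) and plasminogen (Plg) form and dissolve clots, and serpins (Serpina1a to Serpina1e, Serpina3k, and antithrombin, Serpinc1) inhibit proteases. Other members carry small molecules (transthyretin, Ttr; hemopexin, Hpx; vitamin D-binding protein, Gc; a major urinary protein, Mup3), build the hyaluronan-binding inter-alpha-trypsin inhibitors (Ambp, Itih1, Itih2, Itih3) or are kininogens (Kng1, Kng2). Ahsg, or fetuin-A, keeps calcium phosphate from precipitating, and Pzp is a protease-trapping protein of the alpha-2-macroglobulin family. The last 3 members are enzymes that stay inside the cell: Cps1 starts the urea cycle, and Cyp3a11 and Cyp2e1 are cytochromes P450 that oxidize foreign compounds. Hepatocytes transcribe these genes under factors of the HNF1, HNF4 and C/EBP families.

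The regions just before the transcription starts of the 3 members with the highest mean level that have a RefSeq promoter entry are shown, since Alb and Ahsg stood for the transcripts that moved together and Cyp2e1 did not move with them. All are on the plus strand of GRCm38.p6, written 5′ to 3′, and capitals mark GTTAAT (one arm of an HNF1 site) and TTGCNNAA (a C/EBP site), searched on both strands. The Alb run, chr5:90460620-90460869, ends just before the RefSeq start. The Ahsg run, chr16:22891765-22892014, also ends just before the RefSeq start and lies in an intron of longer GENCODE transcripts. The Cyp2e1 run, chr7:140763569-140763738, has 170 bases and stops 80 bases earlier, where GENCODE places the first exon.
Alb: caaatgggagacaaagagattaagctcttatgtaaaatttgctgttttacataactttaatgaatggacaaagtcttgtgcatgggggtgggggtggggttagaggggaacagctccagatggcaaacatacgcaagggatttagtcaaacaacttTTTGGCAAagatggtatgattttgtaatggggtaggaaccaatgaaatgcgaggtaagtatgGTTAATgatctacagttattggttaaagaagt
Ahsg: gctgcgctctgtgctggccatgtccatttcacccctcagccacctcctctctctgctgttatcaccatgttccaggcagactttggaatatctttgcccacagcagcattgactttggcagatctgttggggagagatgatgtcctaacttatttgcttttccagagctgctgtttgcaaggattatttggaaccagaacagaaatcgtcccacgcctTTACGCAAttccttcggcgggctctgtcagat
Cyp2e1: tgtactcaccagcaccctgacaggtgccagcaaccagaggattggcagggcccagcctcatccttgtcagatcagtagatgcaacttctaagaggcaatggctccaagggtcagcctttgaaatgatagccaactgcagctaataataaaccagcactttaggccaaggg

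In Alb the C/EBP letters lay at bases -94 to -87 and the HNF1 arm at -32 to -27 from the RefSeq start, and in Ahsg the C/EBP letters lay at -32 to -25. RefSeq entries matched 27 of the 32 members. Within 250 bases before the start, GTTAAT was found in 11 of these 27 promoters (40.7%) and in 6.43% of all 32851 promoters. TTGCNNAA was also found in 11 (40.7%), against 9.56% of all promoters. The 2 motifs share no position in Alb. The 5 copies Serpina1a to Serpina1e, which descend from 1 gene, all held GTTAAT and are not independent of each other. The TATA box TATAAA was in 4 of the 27 promoters (14.8%) and in 12.4% of all, the HNF4 motif CAAAGTCCA in 1 (3.70%) and in 0.384% of all, and the full HNF1 site in 0 members. A match of letters is a description of these windows and not evidence of a bound factor.

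The libraries held between 36415886 and 59733985 reads on genes, with a median of 49486060.5, and 74.7% to 77.0% of all reads fell on a gene. Levels are given as CPM, the reads of a gene per 1000000 of the library's reads on genes. With 3 reads as the limit that a count of 0 allows, a member without a read lay below 0.0502 to 0.0824 CPM, depending on the library. The sequenced tissue matched its label, since 9 genes of fast muscle fibres, such as the myosin Myh4, together took 137183 to 175964 CPM in every library. No pair of libraries held identical counts. Nothing in the labels names a batch.

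Alb was the member with the widest range. Its counts were 2, 514, 118 and 826 reads in young Sham libraries 1 to 4, and 5, 45, 30 and 12 reads in young GFP. Old GFP libraries held 38525, 153, 32 and 2574 Alb reads, and old AAV-Kl libraries held 591, 203, 264 and 5062. In oldest-old GFP the counts were 42, 18, 22 and 40 reads, and in oldest-old AAV-Kl 38, 95, 9 and 50. Old GFP 1 alone held 38525 of the 49270 Alb reads of the series, and old GFP 3, at 32 reads, lay within the range of young GFP. Every old AAV-Kl library held more Alb reads than every young GFP and every oldest-old library.

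The 31 members other than Cyp2e1, summed, were highest in the same 6 libraries as Alb, though not in the same order. Their sum was 1234 CPM in old GFP 1 (71543 reads), 192 CPM in old AAV-Kl 4, 144 CPM in old GFP 4, 40.1 CPM in young Sham 4, 28.7 CPM in young Sham 2 and 26.5 CPM in old AAV-Kl 1. The other 18 libraries lay between 1.37 and 12.5 CPM. The group medians were 19.3 CPM in young Sham, 2.31 in young GFP, 76.0 in old GFP, 19.5 in old AAV-Kl, 4.56 in oldest-old GFP and 4.43 in oldest-old AAV-Kl. Within old GFP the 4 libraries ran from 4.31 to 1234 CPM, a wider range than that between any pair of group medians. The highest level was in old GFP 1 for 30 of the 32 members, the exceptions being Cyp2e1 and Serpina1e. Mean and SD were 347.6 ± 594.6 CPM in old GFP and 2.34 ± 0.994 CPM in young GFP (n = 4 each).

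**Figure D1:**
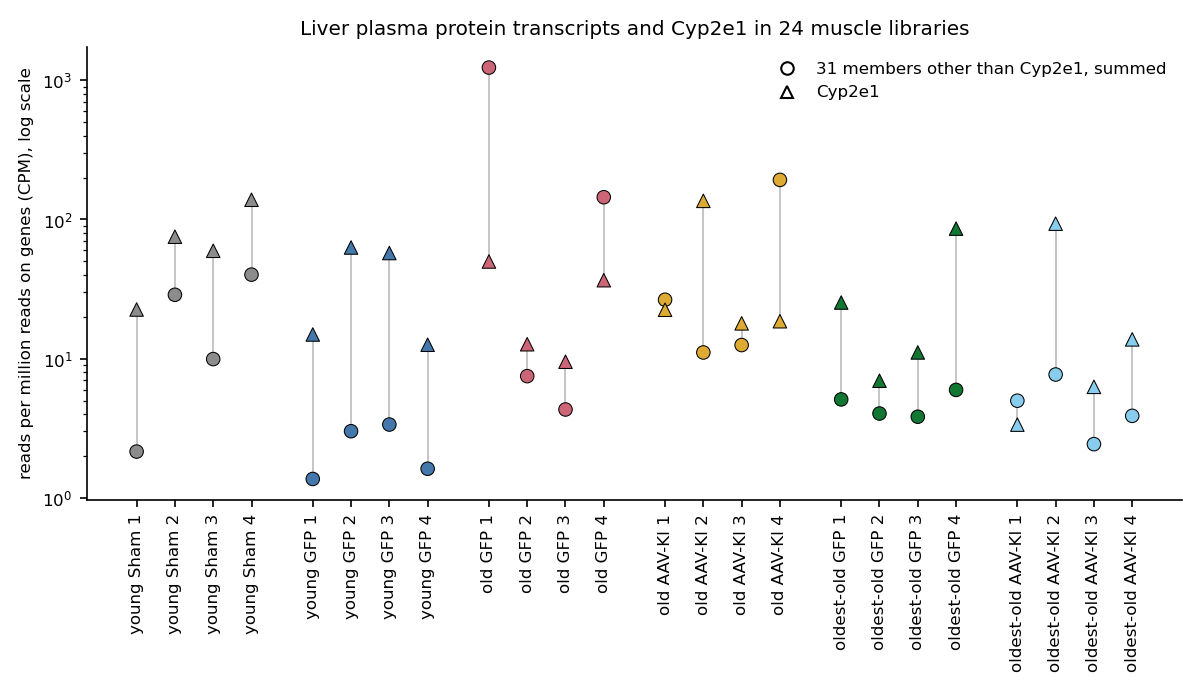
The level of Cyp2e1 (triangles) and the summed level of the 31 other members (circles) in each of the 24 libraries, in CPM on a log axis, with 1 line per library joining the pair and colours marking the 6 groups. Old GFP 1, at 1234 CPM for the 31 members, stands above all other libraries, while Cyp2e1 is highest in young Sham 4, at 138.5 CPM.

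All 32 members summed gave a different picture, since 1 enzyme dominated the sum. Cyp2e1 took more than 70% of the members' reads in 15 of the 24 libraries, with 3.89% in old GFP 1 as its lowest share and 95.4% in young GFP 2 as its highest. Its counts were 1091, 3785, 2934 and 6824 reads in young Sham, 677, 2653, 3057 and 568 in young GFP, and 2892, 690, 346 and 1696 in old GFP. Old AAV-Kl libraries held 1027, 6868, 852 and 923 reads, oldest-old GFP 1381, 289, 507 and 5133, and oldest-old AAV-Kl 167, 5203, 320 and 730. No library was without Cyp2e1. Its 4 highest counts were in young Sham 4, old AAV-Kl 2, oldest-old AAV-Kl 2 and oldest-old GFP 4, of which only young Sham 4 was also among the 6 libraries with the most Alb. With Cyp2e1 included, the medians were 86.7 CPM in young Sham, 38.5 in young GFP, 101 in old GFP, 98.0 in old AAV-Kl, 22.6 in oldest-old GFP and 13.2 in oldest-old AAV-Kl. The values without Cyp2e1 were added after this was seen.

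Cyp2e1 went with genes of fat cells. Over the 24 libraries, log2 CPM of Cyp2e1 and of 6 summed adipocyte markers (Cfd, Adipoq, Plin1, Cidec, Retn and Lep) had a Pearson correlation of 0.879 and a Spearman correlation of 0.842. Without the 2 libraries farthest from the median of the adipocyte sum the Pearson value was 0.838, and with each group's mean taken out it was 0.863. Between Cyp2e1 and the sum of the 31 other members it was 0.343. For Alb against the adipocyte markers it was 0.397, and among the other members only Serpina1e, at 0.689, exceeded 0.5. Such values were computed for all 32 members, over libraries that share the tissue and the counting, and are given as a description with no p. The part of fat tissue in the level of Cyp2e1 was not tested.

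**Figure D2:**
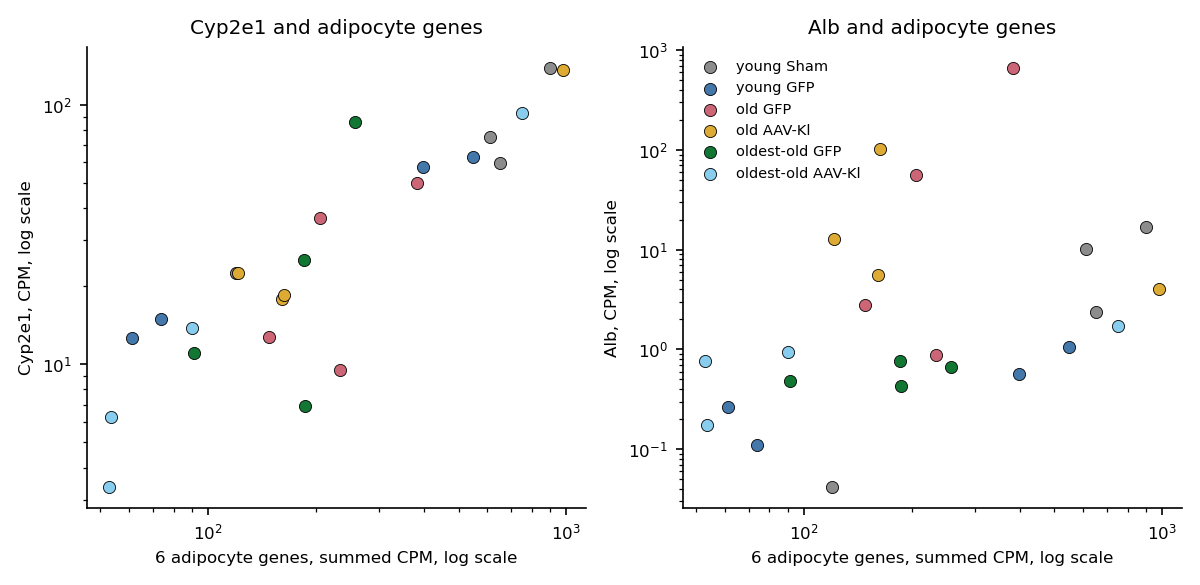
Cyp2e1 (left) and Alb (right) against the summed level of 6 adipocyte markers in the 24 libraries, all in CPM on log axes, 1 point per library coloured by group. Cyp2e1 rises with the adipocyte markers (Pearson correlation 0.879), while the 3 libraries with the most Alb hold 162 to 384 CPM of adipocyte markers, below 7 other libraries.

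With Cyp2e1 set aside, 6 libraries held at least 1000 reads of the other 31 members: young Sham 2 and 4, old GFP 1 and 4, and old AAV-Kl 1 and 4. Among them Alb took 35.5% to 53.8% of the reads, with a median of 45.3%. These libraries were picked for their high levels. In the 22 libraries with at least 100 such reads the share of Alb ran from 1.92% to 53.8% with a median of 24.2%, the median SD of the log2 share was 1.26, and the Spearman correlation between pairs ran from -0.30 to 0.93 with a median of 0.51. Among the 6 libraries, the median over members of the SD of the log2 share was 0.45, against 0.22 from counting error alone. Shares thus spread wider than counting error, over libraries whose summed level lay between 26.5 and 1234 CPM. Across the 31 members, the Spearman correlation between pairs of these libraries was 0.58 to 0.93, with a median of 0.73, over genes that are not independent replicates.

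Ttr, which carries thyroid hormone and retinol-binding protein, had the steadiest share. It held 1.98% to 2.73% of the reads in the 6 libraries, with an SD of its log2 share of 0.16 that was below the 0.18 of counting error. Serpina1c and Itih1 also stayed near their counting error, though on only 5 and 4 reads in their lowest libraries. Ahsg held 4.01% to 6.69%, Gc 2.39% to 4.74%, Apoa1 2.27% to 3.66% and Serpina1d 1.57% to 2.63%. Per 1000 Alb reads there were 94.0 Ahsg reads in old GFP 1 (95% interval 90.8 to 97.3, exact, counting error only), 174 in old GFP 4 (157 to 192), 75.9 in old AAV-Kl 4 (68.2 to 84.2), 126 in young Sham 2 (96.2 to 164) and 115 in young Sham 4 (92.0 to 142). The interval of old GFP 4 did not meet those of old GFP 1 or old AAV-Kl 4, a difference beyond counting error.

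**Figure D3:**
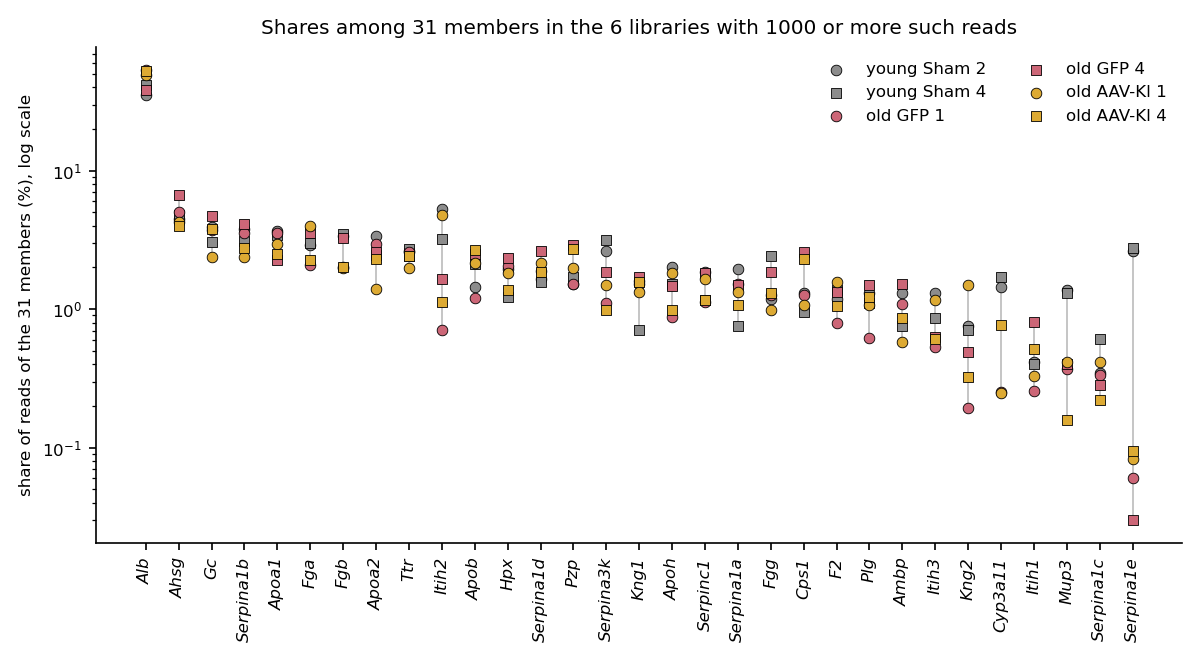
The share of each of 31 members (all but Cyp2e1) among their summed reads, in percent on a log axis, in the 6 libraries with at least 1000 such reads; circles and squares are the first and second library of each group, and grey lines join lowest and highest. Of the 30 members with reads in all 6 libraries, 26 differ less than 3.2 times between lowest and highest share, while Serpina1e is 93.1 times higher in its highest than in its lowest library; Cyp3a11 has 0 reads in old GFP 4 and no square there.

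The widest shares belonged to a few genes. Serpina1e ran from 0.0299% in old GFP 4 to 2.78% in young Sham 4, a ratio of 93.1. Mup3 differed 8.81 times, Kng2 7.76 times and Itih2 7.44 times between their highest and lowest share. The high shares of Serpina1e and Mup3 were in young Sham and the low ones in old libraries. Cyp3a11 had 21 and 34 reads in young Sham 2 and 4, which is 40.9 and 41.2 per 1000 Alb reads, but 0 reads in old GFP 4 beside 2574 of Alb (at most 1.43 per 1000) and 180 reads in old GFP 1 (4.67 per 1000). Old AAV-Kl 4 lay between, with 74 reads (14.6 per 1000). Only 2 Sham libraries are among the 6, and for these genes Sham, age and vector cannot be told apart in this difference. Reads of Serpina1a to Serpina1e, Cyp3a11, Mup3, Kng1 and Kng2 are uncertain, because each has near-identical copies to which a read can also align.

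Serpina1e, 1 of 5 copies of the alpha-1-antitrypsin gene, went its own way beyond these libraries. Its counts were 2, 38, 43 and 55 reads in young Sham, 0, 1, 47 and 0 in young GFP, and 43, 5, 0 and 2 in old GFP. Old AAV-Kl libraries held 1, 2, 0 and 9 reads, oldest-old GFP 5, 3, 0 and 0, and oldest-old AAV-Kl 2, 77, 0 and 2. Young GFP 3 thus held more Serpina1e reads than Alb reads (47 against 30), and oldest-old AAV-Kl 2 nearly as many (77 against 95). In old GFP 1, 43 reads of Serpina1e stood beside 1355 of Serpina1d and 2522 of Serpina1b. Over the 24 libraries its log2 level had a Pearson correlation of 0.39 with the sum of the other members, where Serpina1d had 0.97.

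**Figure D4:**
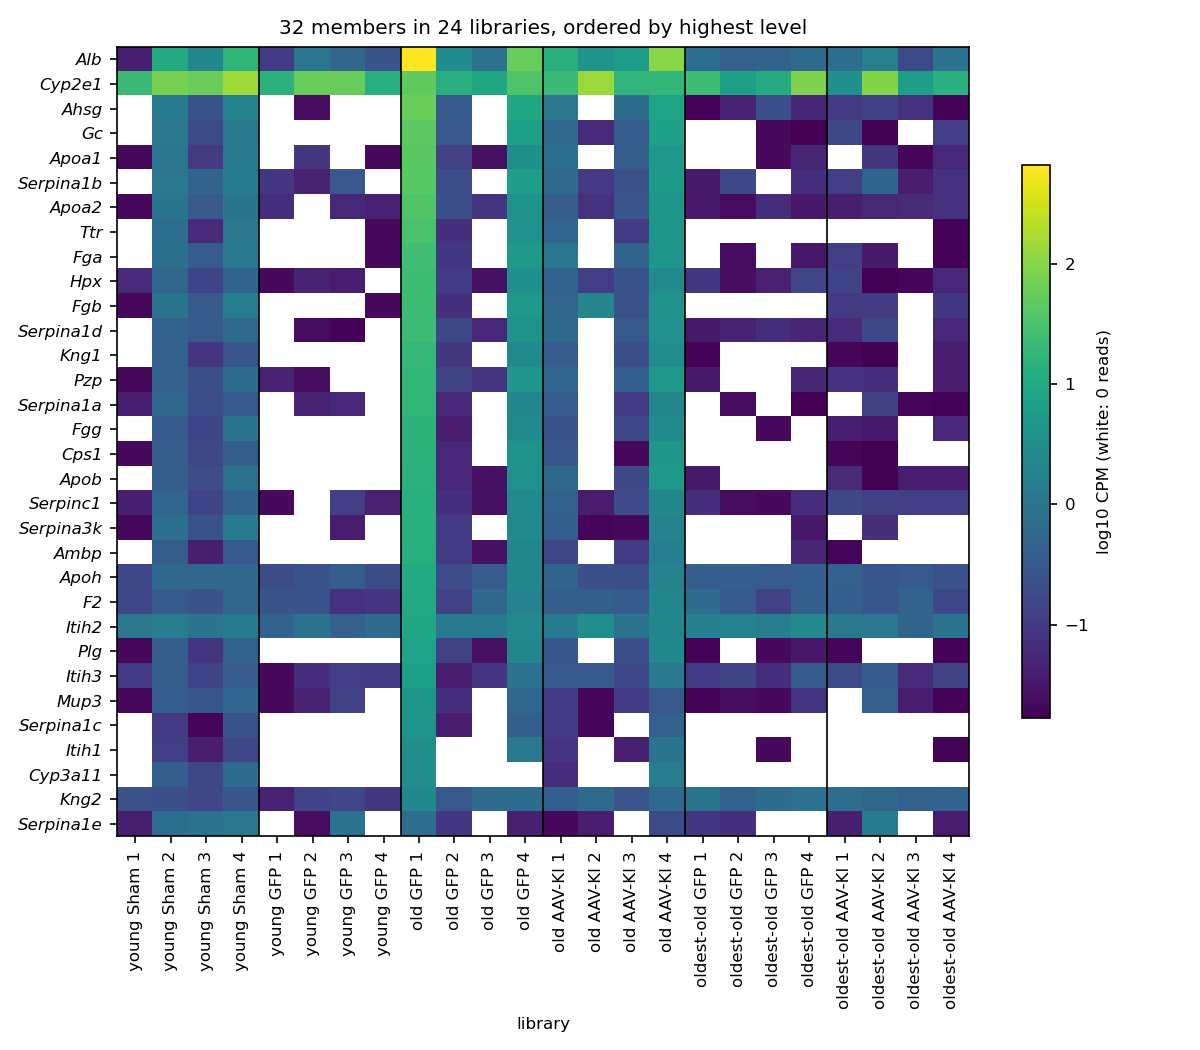
Levels of all 32 members (rows, ordered by their highest level) in the 24 libraries (columns, black lines between groups), as log10 of CPM, with white for 0 reads. Columns are filled or nearly so (29 to 32 members) in young Sham 2 to 4, old GFP 1, 2 and 4 and old AAV-Kl 1, 3 and 4, while in young GFP 13 to 16 of the 32 members have a read.

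The clotting proteins showed 1 library in which the parts came apart. Fgb counts were 1, 49, 16 and 69 reads in young Sham, 0, 0, 0 and 1 in young GFP, 1435, 4, 0 and 217 in old GFP, 24, 103, 11 and 194 in old AAV-Kl, 0 in all 4 oldest-old GFP libraries, and 5, 6, 0 and 5 in oldest-old AAV-Kl. Fibrinogen is built from equal numbers of the Fga, Fgb and Fgg chains. Old AAV-Kl 2, with 103 reads of Fgb, held 0 reads of Fga and 0 of Fgg. In old GFP 1 the chains had 1488, 1435 and 910 reads, and in old AAV-Kl 4 they had 218, 194 and 125.

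Old AAV-Kl 2 also held 203 reads of Alb without the usual companions. It had 0 reads of Ahsg, Apoa1 and Ttr, each at most 18.3 per 1000 Alb reads at 95%, while the 6 libraries above held 75.9 to 174 Ahsg and 47.0 to 103 Apoa1 reads per 1000. Fgb stood at 507 per 1000 Alb reads there (396 to 646), against 37.2 in old GFP 1 (35.3 to 39.3). In this library 15 of the 32 members had no read. Its adipocyte markers summed to 981 CPM, the highest of all libraries, and its keratinocyte markers to 73.4 CPM, against 6.56 CPM or less in 19 libraries. The part of other tissue in these counts was not tested.

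Apart from Apoh, the members named as apolipoproteins divided in the same way as Alb. Apoa2, a protein of high-density lipoprotein, had 1, 49, 16 and 49 reads in young Sham, 3, 0, 3 and 2 in young GFP, 2131, 12, 3 and 174 in old GFP, 17, 4, 13 and 221 in old AAV-Kl, and 1 to 4 in the 8 oldest-old libraries. Apob, the large protein of low-density lipoprotein, had 864 reads in old GFP 1, 257 in old AAV-Kl 4, 167 in old GFP 4 and at most 42 elsewhere. Hpx, which binds free heme, had 1462, 132 and 156 reads in these 3 libraries and at most 28 elsewhere. Pzp had 1081, 260 and 196 reads there and at most 34 elsewhere.

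A further set of members never fell to 0. Itih2, Kng2, Apoh, F2 and Itih3 had reads in every library, as did Alb and Cyp2e1. Itih2 had 21 to 37 reads in young GFP and 69 to 147 in oldest-old GFP, libraries in which Alb had 45 reads or fewer. In young GFP 1 the order of levels per exon length (RPKM) was Cyp2e1 at 6.91, Itih2 at 0.14, Apoh at 0.124 and Apoa2 at 0.123, ahead of F2 and Alb. In old GFP 1 it was Alb at 284, Apoa2 at 68.4, Apoa1 at 35.6, Ahsg at 28.4, Ttr at 26.9, Gc at 24.9 and Cyp2e1 at 23.1 RPKM. Alb thus had a lower level per length than Itih2 in young GFP 1 and a far higher one in old GFP 1.

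The Spearman correlation of each library with old GFP 1 across the 31 members did not divide the libraries exactly by level. It was 0.906 for old GFP 4, 0.900 for old AAV-Kl 4, 0.729 for old AAV-Kl 1, 0.688 for young Sham 2, 0.598 for old AAV-Kl 3, 0.582 for young Sham 4 and 0.425 for old GFP 2. The other 16 libraries lay between -0.283 and 0.206, among them all 8 oldest-old and all 4 young GFP libraries. In these 16 libraries 62 to 559 reads of the 31 members were counted. Young Sham 3, at 0.206, had reads of all members. Old AAV-Kl 3 lay above young Sham 4 in this correlation, though the sum of its 31 members was lower.

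Hepatocyte genes outside the members were high in 3 of the same libraries. A list of 50 further hepatocyte genes summed to 280 CPM in old GFP 1, 51.2 in old AAV-Kl 4 and 50.7 in old GFP 4, against 3.55 to 14.2 CPM in the other 21 libraries. Young Sham 4, old GFP 1 and 4 and old AAV-Kl 4 held reads of all 50, and young GFP libraries lacked 26 to 34 of them. Mat1a, which makes S-adenosylmethionine, was at 17.4 CPM in old GFP 1 and had no read in young GFP 1. By contrast Habp2, at 4.26 CPM in old GFP 1 and 1.37 CPM in young GFP 1, had reads in all libraries. The 8 genes of hepatocytes near the portal vein divided otherwise, with 43.7 CPM in old GFP 1 but 22.97 in oldest-old GFP 4, 20.7 in oldest-old AAV-Kl 2 and 20.3 in old AAV-Kl 2, all above the 13.1 CPM of old GFP 4 and of old AAV-Kl 4. Most of the sum in these 3 was Cyp2f2, a cytochrome P450, with 1299, 1110 and 897 reads, against 1117 in old GFP 1. Of genes on no liver list, those whose log2 level was most like the sum of the 31 members over the 24 libraries were Ces1c (Pearson correlation 0.963), Fabp1 (0.956), Hc (0.949), Slc27a2 (0.943) and Azgp1 (0.938), all with their highest level in old GFP 1. Like the planned sum of all 32 members was Apoc1 first (0.935), followed by Pon1 (0.884) and Cbs (0.878).

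Genes that female livers express more than male ones summed to 45.6 CPM in old GFP 1, 11.4 in old GFP 4 and 7.60 in old AAV-Kl 4, and stayed below 1 CPM in the other 21 libraries. In old GFP 1 all 13 of them had reads, with Cyp2a4 at 24.8 CPM. The pancreatic acinar list stayed at 0.125 CPM or less in every library. Of the 8 kidney markers, old GFP 4 had reads of 7, summing to 0.928 CPM with 17 reads of Kap and 11 of Umod, against 0.426 CPM or less in the other libraries. Acute phase genes such as Lbp and Hp summed to 14.7 to 49.8 CPM over all libraries, with 49.7 CPM in old GFP 1 and 49.8 CPM in oldest-old AAV-Kl 2. In oldest-old AAV-Kl 2 the 5 Kupffer cell markers summed to 54.8 CPM, most of it Marco (27.9 CPM), Cd5l (13.6) and Timd4 (12.96), with Clec4f at 0. Old GFP 1 held 2.91 CPM of these macrophage markers. Clec4f had 39 reads there, 10 in old AAV-Kl 4 and 5 in old GFP 4, and 1 or 0 in every other library. Old GFP 1 also held 58 reads of Timd4, 45 of Cd5l, 26 of Vsig4 and 1 of Marco. Liver sinusoidal endothelial markers summed to 18.9 CPM in old GFP 1 and to 10.2 to 34.2 CPM over all libraries. Hepatic stellate cell markers summed to 6.97 CPM in old GFP 1 and to 4.12 to 9.53 CPM over all libraries. The part of liver or other tissue in any of these levels was not tested.

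Group differences were computed with edgeR's quasi-likelihood test on all 24 libraries, with p-values adjusted over the 17803 genes that passed the filter on low counts. Itih1 did not pass it, and 31 members were tested. The young GFP, old GFP and oldest-old GFP groups each enter several comparisons, which therefore share libraries. Between old GFP and young GFP, 25 of the 31 members were called at an adjusted p under 0.05, all higher in old GFP, beside 4.70% of all tested genes called and 3.21% called higher. At an unadjusted p 29 were higher, beside 10.8% of all genes. With the 2 groups fitted alone only 6 members passed the filter and 2 were called, Alb and Kng2, so most members pass through libraries of other groups. The members were chosen from this difference, so nothing is read from the count. Their median log2 fold change was 8.30 (7.90 with groups at 0 set to their bound), and that of all genes was 0.002.

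The spread within old GFP was as large as that fold. Alb had a mean of 181 ± 323 CPM (SD, n = 4) in old GFP and 0.501 ± 0.421 in young GFP, a log2 fold change of 8.46 with a standard error of 1.86 (edgeR, adjusted p = 0.0117). Gc, with 2995 reads in old GFP and 0 in young GFP, was at least 952-fold higher, and Kng1 (1264 and 0 reads) at least 402-fold, with reads pooled over the group and 3 reads over the group as the floor. Old GFP 1 held 2662 of these Gc and 1144 of these Kng1 reads and old GFP 3 held 0 of both, and without old GFP 1 the differences were at least 151-fold and at least 54.3-fold. In 8 members all old GFP libraries lay above all young GFP libraries, beside 9.46% of all genes. These were Apoa2, Apob, Plg, Serpina1d, Kng2, Pzp, Ambp and Itih2. In old GFP 3, Apob, Plg and Ambp had 1 read, Serpina1d had 2, and Apoa2 and Pzp had 3. These counts do not exceed the limit of 3 reads, and young GFP also reached 3 reads of Apoa2. Kng2 and Itih2 had 25 and 48 reads in old GFP 3. Serpina1c, Cps1, Mup3, Cyp3a11, Serpina1e and Cyp2e1 were not called, and the last 2 had log2 fold changes of -0.03 ± 1.39 and -0.44 ± 0.949 (SE).

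Most of these calls were lost with 1 library. Without old GFP 1, only 2 members were called, Ahsg (log2 fold change 8.76, adjusted p = 0.0483 with edgeR) and Kng2 (2.31, adjusted p = 0.00484 with edgeR). At an unadjusted p under 0.05 there were 27 members, and the members' median log2 fold change was 5.35. Nothing is read from this count either, since the members were chosen from this difference. Of the 333 Gc reads left in old GFP, old GFP 4 held 317. Leaving out old GFP 2, 3 or 4 gave 28, 28 and 25 calls, and leaving out young GFP 1, 2, 3 or 4 gave 9, 12, 8 and 7. Over the 8 fits with a library left out, 366 to 679 of all genes were called. Without old GFP 1 and 4 together only Kng2 was called. DESeq2 called 29 of 32 members in this comparison, beside 3.32% of its 37001 genes. Of the 50 other hepatocyte genes, 27 passed the filter over all libraries and 17 were called, beside 4.70% of all genes tested. Without old GFP 1, 0 of them were called, beside 366 of all genes. All of this list but Habp2 had their highest level in old GFP 1, so nothing is read from these counts.

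**Figure D5:**
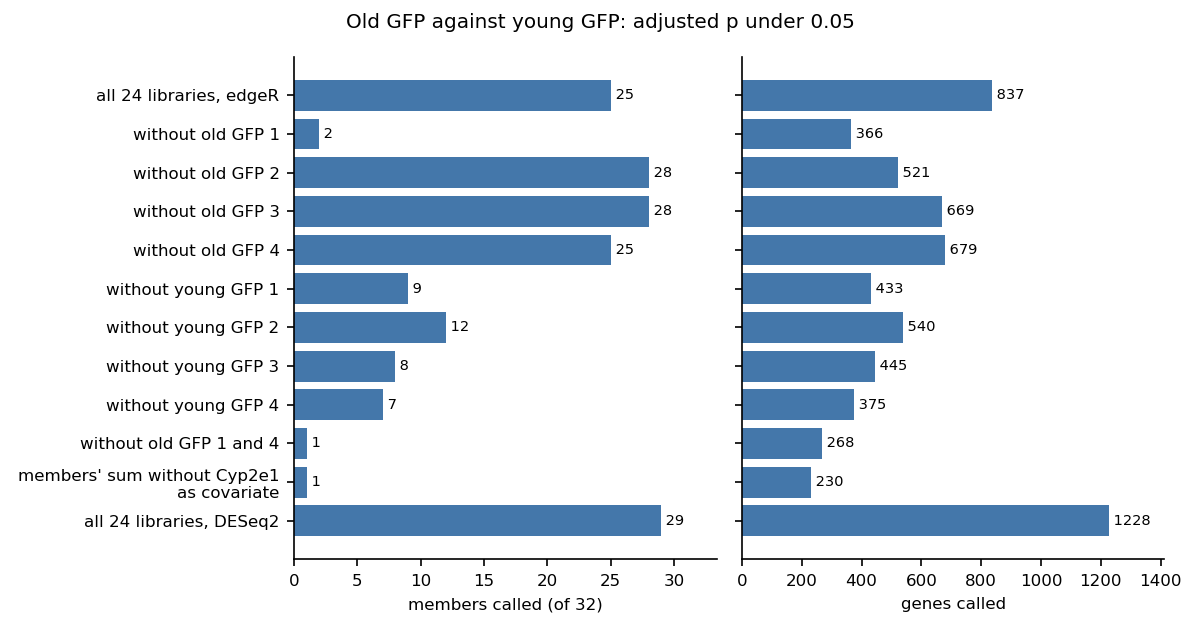
Members (left) and all genes (right) with an adjusted p under 0.05 between old GFP and young GFP, as bars for edgeR on all libraries, with each library of the pair left out, without old GFP 1 and 4, with the members' summed level as a covariate, and for DESeq2. The members' bar falls from 25 to 2 without old GFP 1, and the bar of all genes from 837 to 366.

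Over all genes, 837 were called between old GFP and young GFP, and 366 without old GFP 1, of which 353 were among the 837. Leaving out any other library of the 2 groups gave 375 to 679 calls, so a lower count also came with fewer libraries alone. Without old GFP 1 and 4 there were 268 calls (247 shared). With the log2 sum of the 31 members as a covariate 230 genes were called (216 shared), and with the sum of all 32 members, the planned covariate, 808 (617 shared). Taking the liver lists out before normalization left 706 calls.

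Kng2 was called with and without old GFP 1. It encodes a kininogen, a precursor of kinin peptides. Its counts were 11, 11, 8 and 14 reads in young Sham, 2, 6, 9 and 4 in young GFP, 137, 17, 25 and 33 in old GFP, 18, 31, 13 and 31 in old AAV-Kl, 53, 19, 33 and 53 in oldest-old GFP and 36, 32, 22 and 25 in oldest-old AAV-Kl. All old and oldest-old libraries held more reads than any young GFP library. Between oldest-old GFP and young GFP it was the only member called, with a log2 fold change of 2.65 ± 0.507 (SE; edgeR, adjusted p = 0.00196), beside 14.9% of all genes called. With any 1 library of either group left out, its adjusted p (edgeR) stayed between 0.00176 and 0.00995. Kng2 was chosen as a member by levels in these same libraries, and its reads are uncertain because of near-identical copies. These p-values are therefore a description. Itih2 was next, at 1.48 ± 0.508 (edgeR, adjusted p = 0.0541). Both had an unadjusted p under 0.05 there, beside 16.9% of all genes higher, and 3 members had separate groups, beside 15.1% of all genes higher. These were Kng2, Itih2 and Serpina1d, the last with 2 or 3 reads in oldest-old GFP and 0 or 1 in young GFP. DESeq2 called Kng2 and Itih2, beside 8.32% of its genes.

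Between oldest-old GFP and old GFP edgeR called 0 of 31 members, beside 0.00562% of all genes called. At an unadjusted p, 27 members were lower in oldest-old GFP, beside 5.27% of all genes, and 3 members (Alb, Apoa2 and Pzp) had separate groups, beside 1.09% of all genes. These 3 were separate in CPM and not in reads. Old GFP 3, the library with the fewest reads on genes, held 32, 3 and 3 reads of them. Oldest-old GFP held up to 42, 3 and 3. The lowest adjusted p was 0.150, shared by Alb (log2 fold change -8.28) and Apoa2 (-7.97) among others. DESeq2 called 26 members, all lower, beside 0.346% of its genes. The choice of tool thus decided this comparison, in which both groups had 4 libraries and old GFP held the highest one.

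In the Klotho comparisons no member was called. Between old AAV-Kl and old GFP, edgeR and DESeq2 both called 0 members, beside 0% of all genes by either tool, and 14 members had an unadjusted p under 0.05, all lower in old AAV-Kl, beside 0.977% of all genes. Mup3 had the lowest unadjusted p in the edgeR fit, 0.0141, at a log2 fold change of -3.24 ± 1.21 (SE). The 2 groups overlapped in every member. Without old GFP 1 the old GFP libraries held 153, 32 and 2574 Alb reads and the old AAV-Kl libraries 591, 203, 264 and 5062. Between oldest-old AAV-Kl and oldest-old GFP, 0 members were called and 0 had an unadjusted p under 0.05, beside 0.0112% and 8.08% of all genes, and DESeq2 called 0 members beside 0.0730%. All oldest-old AAV-Kl libraries lay above all oldest-old GFP libraries in Serpinc1 (6 to 8 reads against 1 to 4), beside 229 of 17803 genes. They lay below in Itih2 (26 to 61 reads against 69 to 147), beside 186 genes. The difference between the 2 Klotho effects was called in no member, with Mup3 (unadjusted p = 0.0209) and Serpina1e (unadjusted p = 0.0470) the lowest in the edgeR fit and both with an adjusted p above 0.8.

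The fitted fold change from young Sham to young GFP was negative in all 31 members tested. None was called by edgeR, beside 0.472% of all genes, and 10 were lower in young GFP at an unadjusted p, beside 8.62% of all genes. In 4 members all young GFP libraries lay below all young Sham libraries, beside 8.14% of all genes. These were Itih2, Plg, Cps1 and Hpx. Plg and Cps1 had 1 read in young Sham 1 and Hpx had 3, against at most 0, 0 and 2 in young GFP. DESeq2 called 2, Ahsg and Cyp3a11, beside 0.776% of its genes. Ahsg had 0, 65, 13 and 95 reads in young Sham and 0, 1, 0 and 0 in young GFP. Young Sham 1, with 2 reads of Alb and 0 of Ahsg, held fewer Alb reads than any young GFP library. Over all genes 84 were called between these groups, 36 with the sum of the 32 members as a covariate and 2 with the sum of the 31. Leaving out young Sham 2 left 1 call among all genes and leaving out young GFP 4 left 10, while leaving out young Sham 3 or young GFP 1 or 2 left 32, 42 and 33. Over all 8 fits with a library left out the count ran from 1 to 114.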

How the data were processed

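RNA-seq of gastrocnemius muscle from 24 female mice was analysed. The authors aligned reads to mouse GRCm38 (mm10) with STAR and deposited, for each library, raw read counts per gene, with and without regard to strand and without normalization. The first strand column held 49.8% to 50.4% of stranded counts, so the unstranded counts were used. Rows that name no gene (23.0% to 25.3% of reads) were left out. FastQC and DESeq2 are also in the submitters' processing notes.

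The 32 members, the other gene lists and the comparisons were chosen with earlier results of these data known. Symbols and exon lengths came from GENCODE M21 tables, promoters from RefSeq (GRCm38.p6). CPM was computed over all reads on genes, and RPKM also per exon length; logs for likeness used CPM plus 0.1. Exact (Clopper-Pearson) 95% intervals and limits of 3 reads cover counting error only. Shares were compared in libraries with at least 1000 member reads.

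Genes were tested across all 24 libraries with edgeR 4.0.16 (filterByExpr, TMM, quasi-likelihood, group as the only term, Benjamini-Hochberg over 17803 genes, adjusted p under 0.05), checked on simulated counts. The simulated counts gave every gene the same relative spread and held no outlying library. They therefore do not check the test on members with 1 outlying library. SE is the log2 fold change over the root of its F. Alternatives were DESeq2 1.42.0, its size factors, no filter, the first strand column, 20 libraries, the compared groups alone, a replicate block, covariates, and each library left out. Labels say that libraries are separate samples, and p-values measure the spread between mice. Named genes are all members, the 5 highest of each list and the 20 most alike; of these, examples are given.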

Additional observations from a re-analysis of the deposited data

Results flagged for a closer look

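In groups of 4 libraries, 22 values stood farther from their group than Dixon's test allows at 95%, out of 60 groups of values tested. The test flags about 1 group in 20 by chance where values are normally spread. These CPM are skewed, and a group with a read in only 1 library is always flagged. That rate therefore cannot be set against the 22. The values are also not independent, since members move together.

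Old GFP 1 was the highest of its group for the sum of all members (1284 CPM), the sum without Cyp2e1 (1234 CPM), the other hepatocyte genes (280 CPM), Alb (664 CPM), Ahsg (62.5 CPM), Mup3 (4.54 CPM) and Serpina1e (0.742 CPM). Old AAV-Kl 4 was the highest of its group for the sum without Cyp2e1 (192 CPM), the other hepatocyte genes (51.2 CPM), Alb (102 CPM) and Ahsg (7.73 CPM). Old AAV-Kl 2 stood apart for Cyp2e1 (136 CPM). Oldest-old AAV-Kl 2 stood apart for the sum of all members (101 CPM), Cyp2e1 (93.3 CPM), Serpina1e (1.38 CPM) and Mup3 (0.430 CPM), and young GFP 3 for Serpina1e (0.882 CPM).

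On few reads, values stood apart for Ahsg in young GFP 2 (0.0237 CPM, 1 read) and oldest-old GFP 3 (0.219 CPM), for Fgb in young GFP 4 (0.0222 CPM, 1 read) and, as the lowest of its group, in oldest-old AAV-Kl 3 (0 CPM), and for Mup3 in oldest-old GFP 4 (0.0837 CPM).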

How the results depend on the processing

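The count of members called between old GFP and young GFP was 2 when the compared groups were fitted alone, where 6 members passed the filter, and 1 without old GFP 1 and 4. It ranged from 2 to 28 with each library left out. It stayed within 1.5 times of 25 under DESeq2's size factors and test, no filter, the first strand column, the fit without young Sham and the block. Between oldest-old GFP and young GFP the count of 1 became 2 with DESeq2, the first strand column, the groups alone and the replicate block. DESeq2 gave 26 between oldest-old GFP and old GFP and 2 between young GFP and young Sham, where edgeR gave 0.

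Over all genes, the 837 calls between old GFP and young GFP became 553 without the filter, 551 with the first strand column, 1275 with the groups alone, 230 with the sum without Cyp2e1 as covariate and 268 without old GFP 1 and 4, and 366 to 679 with a library left out. The 2649 calls between oldest-old GFP and young GFP became 1755 without the filter and 1249 with the groups alone (1674 to 2755 with a library left out). The single call between oldest-old GFP and old GFP became 128 with DESeq2 and 0 without the filter, with the first strand column, without young Sham, with the groups alone, with the block, with either covariate and without old GFP 1 and 4 (0 to 3 with a library left out). Between oldest-old AAV-Kl and oldest-old GFP the 2 calls became 27 with DESeq2, 1 with the first strand column and 0 with the groups alone (1 to 4 with a library left out). Between young GFP and young Sham the 84 calls became 287 with DESeq2, 174 with the groups alone, 36 with the covariate and 2 with the covariate without Cyp2e1 (1 to 114 with a library left out). There 59.5% of calls were higher with TMM and 71.8% with DESeq2's size factors. The causes were not tested, beyond fewer libraries or genes entering some fits.

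Without Cyp2e1 the median summed level was 19.3 CPM in young Sham and 2.31 in young GFP, against 86.7 and 38.5 with it. With each library left out, the medians with it ran from 69.5 to 104 CPM in young Sham, 16.3 to 60.8 in young GFP, 20.2 to 181 in old GFP, 49.0 to 147 in old AAV-Kl, 14.9 to 30.4 in oldest-old GFP and 8.70 to 17.6 in oldest-old AAV-Kl. For all 32 members in the 16 libraries with at least 1000 reads, the median share of Alb was 6.42%, the spread of log2 shares 1.24 and the Spearman correlation 0.51. At 10000 reads, which 2 libraries reached, these were 50.01%, 0.31 and 0.91. Without Cyp2e1, at 1000 reads in 6 libraries, the share was 45.3% and the spread 0.45. Without Cyp2e1 only 1 library reached 10000 reads, and no value could be had. The settings without Cyp2e1 or without old GFP 1 and 4 were chosen after seeing the data.

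Replicate numbers are shared between groups, but same-numbered libraries did not deviate together (mean correlations between -0.16 and 0.013). With the block 19 members and 710 genes were called between old GFP and young GFP.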

Other observations

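Members that stay inside the hepatocyte were found beside the secreted ones. Cps1, the first enzyme of the urea cycle, had 905 reads in old GFP 1, 173 in old GFP 4 and 222 in old AAV-Kl 4, and 19 in each of young Sham 2 and 4. In all 4 young GFP and all 4 oldest-old GFP libraries it had 0 reads. Genes of hepatocytes near the central vein summed to 8.92 CPM in old GFP 1, 2.76 in old GFP 4, 2.23 in old AAV-Kl 4 and 1.73 in old AAV-Kl 1, and stayed below 1 CPM elsewhere. In old AAV-Kl 1 most of this was Slc1a2 (70 reads, against 12 in old GFP 1), with 3 reads of Rgn and 0 of Cyp2c37, which had 264 and 186 in old GFP 1.

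Keratinocyte markers were high in 5 libraries, of which young Sham 4 was also among those with the most Alb. They summed to 408 CPM in young GFP 3, 159 in young Sham 4, 122 in young GFP 1, 73.4 in old AAV-Kl 2 and 25.2 in oldest-old AAV-Kl 4, and to 6.56 CPM or less in the rest. Old GFP 1 held 1.45 CPM. Red cell markers ran from 41.8 CPM in young Sham 3 to 715 CPM in oldest-old GFP 4, where Alb had 40 reads.

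Serpina1e and the macrophage receptor gene Marco shared 5 of their highest libraries. Marco had 99, 208, 84, 90, 126 and 1559 reads in young Sham 2, 3 and 4, young GFP 3, old AAV-Kl 2 and, last, oldest-old AAV-Kl 2, and 14 or fewer in the other 18. Serpina1e had 38, 43, 55, 47, 2 and 77 reads in these 6, and its only other count above 9 was 43 in old GFP 1. This was noticed after the values were seen.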
